A study of Mus musculus with 4 samples.

Results

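Prdm1, Bcl6, Bach2, Id2, Id3, Tcf3, Tcf12, Zeb2, Tox and Tox2, 10 genes that encode fate regulators of T cells, were followed on 4 single-colour Agilent arrays of regulatory T (Treg) cells that had been differentiated in vitro from mouse T cells. The members were taken by name: every non-control spot whose annotated gene was one of the 10, out of 36876 names on the array, with spots of a probe averaged and every probe reported. They were covered by 30 probes. RNA came from naive CD4 T cells of C57BL/6 mice cultured for 3 days with immobilised anti-CD3 at 1 μg/ml, with 0.5 μg/ml of anti-CD28, TGF-β1 (5 ng/ml) and antibodies against IFN-γ and IL-4 (5 μg/ml each). The 2 control arrays came from Junbfl/fl mice, whose Junb alleles are floxed but are not exposed to Cre. In the 2 others the mice also carried Cd4-Cre (Junbfl/flCd4-Cre), which acts in T cells from the thymus on, not in Treg cells alone. Whether the arrays of a genotype stand for separate mice or cultures is not stated, so the p-values below reflect array-to-array spread that may be technical only. The extraction label names colon, whereas the remaining labels name cultured Treg cells.

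The members form a small network of opposing factors. Blimp-1, the product of Prdm1, is a zinc-finger repressor that marks effector Treg cells and plasma cells, and Bcl6 is the zinc-finger repressor of follicular T cells; each is known to repress the other's gene. Bach2 is a bZIP repressor that holds T cells in a resting state, binds sites that overlap those of the AP-1 factor JunB, and represses Prdm1. The E proteins E2A (Tcf3) and HEB (Tcf12) are helix-loop-helix activators that bind E-box DNA, and Id2 and Id3 lack a DNA-binding region and hold E proteins off DNA. Zeb2 is a zinc-finger repressor of terminal effector cells that also binds E-boxes, and Tox and Tox2 are HMG-box factors of chronically stimulated and follicular T cells.

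The differences below turn on 5 of the probes, each 60 bases long. The sequence of the only Prdm1 probe, at chr10:44166619-44166678 on the minus strand (mm9, the build of the array files), is shown whole because the largest difference among the members rests on it alone, and it is free of stop codons in all 3 sense frames. The first 30 bases are shown for the paired Bcl6 and Id2 probes, which read different stretches of the same gene.
Prdm1 A_66_P121752: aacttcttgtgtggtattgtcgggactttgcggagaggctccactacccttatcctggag
Bcl6 A_52_P161495: cagggtttggctgtgtctaaactgcattag
Bcl6 A_55_P2719024: tatgtaggagcagtgaaggtgttaaaggaa
Id2 A_52_P240542: tgagtgaaccttgtggactctttaattaga
Id2 A_52_P94071: gtaatgtgcttgtgtgtctgttaaatgttt
The Bcl6 probes lie at chr16:23965160-23965219 and chr16:23967780-23967839, and the Id2 probes at chr12:25778904-25778963 and chr12:25780080-25780139, all on the minus strand of mm9.

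The 250 bases before the transcription start are shown for the 3 genes with a called probe, from RefSeq (GRCm38.p6), which held 19 promoters for 9 of the 10 members. They were searched on both strands for TGANTCA, a relaxed form of the AP-1 element, for its strict form TGAGTCA, whose matches are a subset of the relaxed ones, and for the E-box CAGGTG, which E proteins and Zeb factors bind. Capitals mark the matches.
Prdm1, chr10:44458749-44458998, minus strand: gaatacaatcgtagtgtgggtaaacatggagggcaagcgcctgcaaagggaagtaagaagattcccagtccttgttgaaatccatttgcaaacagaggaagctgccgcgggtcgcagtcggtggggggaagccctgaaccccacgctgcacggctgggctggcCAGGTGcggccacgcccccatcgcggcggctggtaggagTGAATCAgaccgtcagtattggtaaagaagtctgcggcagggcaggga
Bcl6, chr16:23988853-23989102, minus strand: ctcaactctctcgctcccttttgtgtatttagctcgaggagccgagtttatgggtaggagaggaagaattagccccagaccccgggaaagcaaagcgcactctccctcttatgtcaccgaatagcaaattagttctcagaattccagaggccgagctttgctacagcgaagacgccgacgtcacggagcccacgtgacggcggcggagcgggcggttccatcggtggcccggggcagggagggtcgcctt
Id2, chr12:25096093-25096342, minus strand: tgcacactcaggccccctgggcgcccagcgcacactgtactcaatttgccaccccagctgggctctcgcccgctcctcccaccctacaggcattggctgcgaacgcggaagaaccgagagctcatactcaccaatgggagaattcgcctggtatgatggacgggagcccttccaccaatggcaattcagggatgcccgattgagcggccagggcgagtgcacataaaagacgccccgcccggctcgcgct
The Prdm1 window held 1 relaxed AP-1 match, starting 48 bases before the start, and 1 E-box, starting 87 bases before it, while its AP-1 match was not of the strict form. The windows of Bcl6 and Id2 held neither, nor did that of the second RefSeq start of Bcl6 (chr16:23981284-23981533), which is not shown. Among the 19 member promoters, 2 held a relaxed AP-1 match, 1 a strict one and 2 an E-box, against 6.75%, 4.46% and 17.2% of the 32851 RefSeq promoters of the same length. Beside Prdm1, the AP-1 matches were in 1 of the 4 Zeb2 promoters and the other E-box in a Tox2 promoter. These matches describe letters in a window and were not tied to binding.

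Signals are given as the processed signal divided by the 75th percentile of the array's probes, here called the relative signal, because the arrays differed in brightness (75th percentiles of 151, 145, 119 and 101). A dim Junb probe followed the labels, at 47.2 and 31.7 in processed signal for the controls against 4.11 and 1.47. The brightest Junb probe read 9791, 9072, 1053 and 10078, so the second array labelled Junbfl/flCd4-Cre does not follow its label there. Which of these probes lies in the deleted stretch is not stated. The genotype is therefore named by its label, on which all directions below depend. Without that second array the called probes gave 2.58 for Prdm1, 1.95 for Bcl6 and -1.36 for Id2 on the log2 scale. T cell identity was borne out, as all 9 T cell markers on the array, among them Cd3e and Lck, were well above background on all 4 arrays. Foxp3, the defining factor of Treg cells, named here after its values were seen, was above background on all 4 as well, with relative signals of 8.51 and 8.99 against 2.49 and 5.78. The genotypes did not overlap there, and the difference was not called (-1.20 ± 0.45, limma adjusted p = 0.135). Of 10 colon epithelium markers 3 to 5 were above background on an array, with a summed relative signal of 0.763 to 0.764 under the control label and 1.18 to 1.19 under the other, and Krt20, Cdh1, Vil1 and Muc2 were above it on none.

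Other cells that carry the members were measured through their markers. B cells use Bach2, Bcl6 and Tcf3, and B cell markers had a summed relative signal of 1.85 to 5.02 for the controls against 5.81 to 9.54, with 7 to 10 and 8 to 10 of 11 above background and Blk above it on none. Plasma cells use Prdm1, and 3 to 4 and 4 to 5 of 7 plasma cell markers were above background. Their summed signal was 38.5 to 39.1 in control cells, compared with 22.2 to 25.2, most of it Xbp1, which T cells also express, and Tnfrsf17 and Fkbp11 were above background on no array. Of the 4 tested, 3 were positive (median 0.79 on the log2 scale) and Xbp1 was negative (-0.80 ± 0.18, limma adjusted p = 0.071). Sdc1, the plasma cell surface marker CD138, which was not called, read 0.131 and 0.196 against 0.421 and 0.337 (1.23 ± 0.27, limma adjusted p = 0.070). Jchain, the joining chain of antibodies, was at least 2.27-fold higher on the arrays labelled Junb-deficient, which alone brought it into the test. It was above background on neither control, and its limma adjusted p (0.0404) belongs to the signals as read (2.77 ± 0.39). Myeloid and dendritic cells carry Zeb2 and Id2, and 6 to 10 of their 13 markers were above background on the controls and 9 to 10 on the others. Their summed signal was 263 to 268 and 429 to 459, and Adgre1 and Clec9a were above background on no array. Most of that sum was Siglech, at 242 and 245 against 398 and 397, brighter than the T cell gene Lck on every array. The sum thus follows Siglech and says little about the other markers. Of 7 NK and innate lymphoid markers 1 to 2 and 3 were above background, with summed signals of 0.189 to 0.276 and 0.455 to 1.01, and Ncr1 and Klrk1 were above it on none. Most of the 1.01 was Klrb1c on array 2 labelled Junb-deficient, at 0.619, against 0.0345 on array 1 of that label. Of 2 CD8 T cell markers 1 to 2 were above background on the controls and 1 on the others, with summed signals of 2.51 to 2.92 and 3.69 to 4.19. The part of these cells in the differences below was not tested, and in such bulk RNA fewer cells of a type and less RNA per cell cannot be told apart.

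On the arrays labelled Junb-deficient, Prdm1 was called higher and Id2 was called lower at 1 of its 2 probes. Bcl6 was higher at both of its probes, of which 1 was called. Of the 30 probes 24 were tested, because a genotype had both of its arrays well above background, and all 10 genes had at least 1 such probe. Of these 3 were called by limma (2 higher, 1 lower; adjusted p under 0.05 over 33606 probes), which is 12.5% of those tested, against 6.78% called among all probes. Called higher were 5.53% of all probes and called lower 1.25%. The genotypes did not overlap at 13 of the 24 probes (54.2%), less than the 72.2% of all probes. Differences were positive at 13 and negative at 11 of the 24, with a median of 0.26 on the log2 scale, against -0.012 over all probes.

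**Figure D1:**
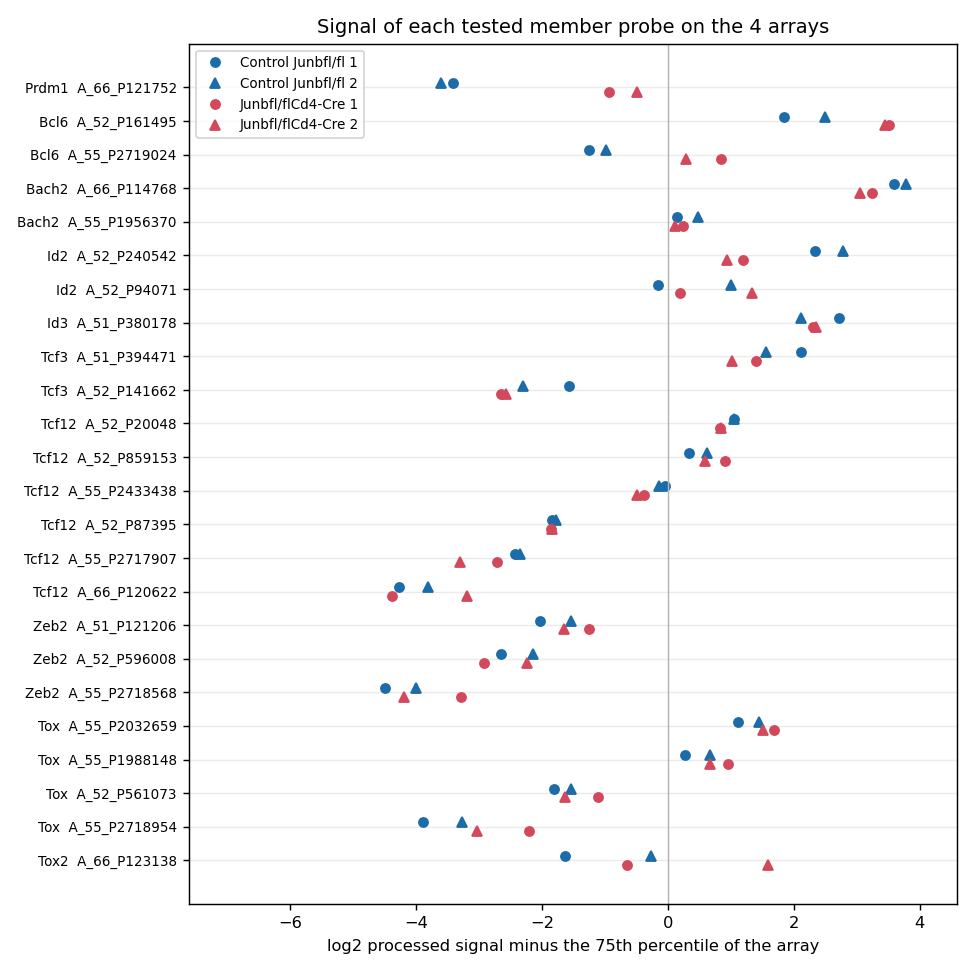
Signal of the 24 tested member probes on each array, as log2 processed signal minus the array's 75th percentile (x axis), 1 row per probe, circles for arrays numbered 1 and triangles for arrays numbered 2. The genotypes stand far apart for Prdm1, with relative signals of 0.0936 and 0.0823 against 0.525 and 0.710, and mix for Id3 and Zeb2.

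Prdm1 (NM_007548), the gene of Blimp-1, gave the largest difference of the 24 probes. Its relative signals were 0.0936 and 0.0823 in control cells against 0.525 and 0.710 under the label Junbfl/flCd4-Cre. The genotypes did not overlap, and the probe was well above background on all 4 arrays, though dim on the controls (14.2 and 11.9 in processed signal, where the dimmest spots above background read 5.24 and 6.48). The difference was 2.80 ± 0.22 (SE of the fit, log2 scale, n = 2 arrays per genotype), a 6.96-fold rise with a 95% interval of 2.19 to 3.41 on the log2 scale (limma adjusted p = 0.0265). It was positive in both same-numbered comparisons, at 2.49 and 3.11. Probes of like brightness, when all tested probes were split into 5 brightness classes, had a median of 0.27. The difference shrank to 0.94 with normexp background correction and quantile normalization, whose offset compresses dim signals, and was then not called (limma adjusted p = 0.062). On the authors' log2 signals it was 1.26 and was called (limma adjusted p = 0.0363).

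Bcl6, the counterpart of Blimp-1, was read by a bright probe for its RefSeq transcript (NM_009744) and by a dimmer one 2620 bases away, annotated to the transcript ENSMUST00000135352. At the dimmer probe the relative signals were 0.420 and 0.509 for the controls against 1.79 and 1.23. It rose by 1.68 ± 0.26 on the log2 scale, or 3.21-fold (limma adjusted p = 0.0461). At the bright probe they were 3.59 and 5.63 in control cells, compared with 11.4 and 10.9. This probe did not pass (1.31 ± 0.27, 95% interval 0.57 to 2.06, limma adjusted p = 0.065), although neither probe overlapped between genotypes. Both probes were higher in each same-numbered comparison, by 2.09 and 1.27 at the dimmer and by 1.67 and 0.96 at the bright probe. Probes as bright as the dimmer had a median of 0.007 and those like the bright probe -0.35. The call at the dimmer probe was lost with quantile normalization (adjusted p = 0.063), normexp background with quantile normalization (0.069) and the authors' log2 signals (0.058), with differences of 1.65, 1.08 and 1.34 by limma. The mean of both probes gave 1.497 and was called (adjusted p = 0.046).

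Bach2, the resting-state repressor, had no probe that passed. Its bright probe (chr4:32673009-32673068, mm9) had relative signals of 12.0 and 13.7 under the control label and 9.50 and 8.26 under the other. The genotypes did not overlap there, and the difference was -0.54 ± 0.18 (95% interval -1.02 to -0.05, limma adjusted p = 0.112). The dimmer probe, upstream in the same transcript (chr4:32588782-32588841), read 1.11 and 1.39 against 1.18 and 1.08. Here the genotypes overlapped (-0.14 ± 0.19, 95% interval -0.66 to 0.39, adjusted p = 0.615). Probes as bright as the first had a median of -0.35 and those like the second -0.23.

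**Figure D2:**
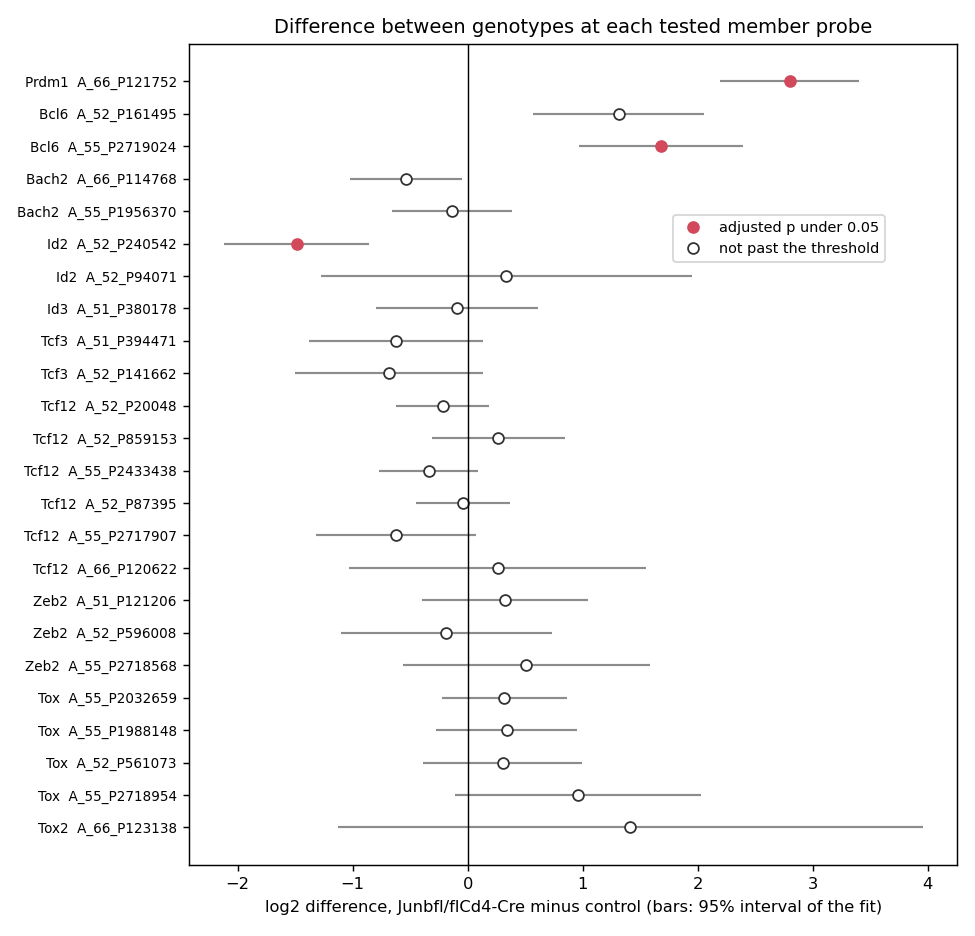
Log2 difference, arrays labelled Junbfl/flCd4-Cre minus control, at each tested member probe, with the 95% interval of the limma fit (bars) and filled points for an adjusted p under 0.05. The filled points are Prdm1 at 2.80, the dimmer Bcl6 probe at 1.68 and the bright Id2 probe at -1.48, and the widest interval belongs to Tox2.

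Of the Id genes, whose products hold E proteins off DNA, Id2 gave a call and Id3 did not, and the difference between the genes was not tested. At the Id2 probe in the RefSeq transcript (NM_010496) the relative signals were 5.04 and 6.85 for the controls against 2.29 and 1.93. Id2 fell there by 1.48 ± 0.23 on the log2 scale, 2.80-fold, with a 95% interval of -2.12 to -0.85 (limma adjusted p = 0.0464). The genotypes did not overlap, and the same-numbered differences were -1.14 and -1.83. The median of probes as bright was -0.23. The other Id2 probe, 1176 bases away and annotated to the cDNA AK013239, whose product the file gives as unclassifiable, read 0.898 and 2.01 in control cells, compared with 1.14 and 2.53. It was higher on the arrays numbered 2 of both genotypes, and its difference was 0.34 ± 0.59 (95% interval -1.28 to 1.95, adjusted p = 0.687). The Id2 call thus rests on the RefSeq probe alone, and the mean of both probes gave -0.57 and was not called (adjusted p = 0.286). The call was also lost with quantile normalization (-1.30, adjusted p = 0.078), normexp background with quantile normalization (-1.17, 0.075) and the authors' log2 signals (-1.21, 0.071) by limma.

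Id3, the other inhibitor, was read by 1 probe, placed by the file at chr4:135700075-135700249. Its relative signals were 6.60 and 4.35 under the control label and 4.96 and 5.09 under the other. The arrays labelled Junb-deficient lay between the controls, and the difference was -0.09 ± 0.26 (95% interval -0.80 to 0.61, limma adjusted p = 0.803). The sign was positive with quantile normalization (0.13), normexp background with quantile normalization (0.15) and the authors' log2 signals (0.17).

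The E protein genes gave no call. Tcf3, which encodes E2A, read 4.31 and 2.93 for the controls against 2.63 and 2.02 at its bright probe. Its second probe read 0.338 and 0.203 against 0.159 and 0.167. Both probes were without overlap, as were 72.2% of all tested probes, and gave nearly the same value, -0.62 ± 0.28 and -0.68 ± 0.30 (limma adjusted p = 0.178 and 0.171). On the control arrays number 1 was the higher at both. Probes as bright as the first had a median of -0.23 and those like the second 0.27.

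Tcf12, which encodes HEB, had 6 probes, all tested, and 4 were negative and 2 positive. Their differences ran from -0.62 to 0.27 (limma adjusted p = 0.156 to 0.857). The brightest (chr9:71692310-71692369) read 2.06 and 2.08 in control cells, compared with 1.77 and 1.79. That gap of -0.22 ± 0.15 is close to the median of -0.23 of probes as bright. At 3 of the 6 Tcf12 probes the genotypes did not overlap, which is no more than the 72.2% of all tested probes. Each of the 3 was lower on the arrays labelled Junb-deficient. The largest gap was at the probe for the transcript ENSMUST00000184806, with 0.186 and 0.196 against 0.152 and 0.101 (-0.62 ± 0.25, adjusted p = 0.156). With scaling to the array median, which lowers every difference by 0.53, both Tcf3 probes and 3 Tcf12 probes were called lower (limma adjusted p = 0.037 to 0.048), as was the bright Bach2 probe (-1.07, adjusted p = 0.033). That setting called 12970 of all 33606 tested probes, 10565 of them lower, and 9 of the 24 member probes, so these calls do not set the members apart.

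Zeb2, the E-box repressor of terminal effector cells, was dim on these arrays. Of its 7 probes, 4 were not tested, with processed signals of 1.22 to 6.16 under the control label and 1.34 to 8.94 under the other. The brightest of the 3 tested read 0.246 and 0.344 under the control label and 0.418 and 0.317 under the other. The genotypes overlapped at all 3, and the differences were 0.32 ± 0.26, -0.19 ± 0.33 and 0.51 ± 0.39 (limma adjusted p = 0.374 to 0.694). The last lies among the dimmest of the 5 brightness classes, whose median was 0.68, and there array 2 labelled Junb-deficient was not well above background. The first and the last turned to -0.21 and -0.023 with scaling to the median.

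Tox, an HMG-box factor of chronically stimulated T cells, had 5 probes, of which the 4 tested were all positive and none was called. The brightest (chr4:6614755-6614814) read 2.16 and 2.74 for the controls against 3.21 and 2.86, a difference of 0.32 ± 0.20 (limma adjusted p = 0.292). The next 2 gave 0.34 ± 0.22 and 0.30 ± 0.25. These 3 turned to -0.22, -0.19 and -0.23 with scaling to the median. The dimmest tested probe, annotated to ENSMUST00000150082, read 0.0678 and 0.104 against 0.217 and 0.122. It gave 0.96 ± 0.39 (adjusted p = 0.154), most of it from the arrays numbered 1, at 1.68 against 0.24 for those numbered 2. The median of probes as dim was 0.68. The remaining probe was above background on no array.

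Tox2, its relative in follicular T cells, had the largest standard error of the 24 probes. Its tested probe (chr2:163149771-163149830) read 0.323 and 0.830 in control cells, compared with 0.634 and 3.00. The genotypes overlapped, and the arrays numbered 2 were higher in both. The difference of 1.41 ± 0.93 had a 95% interval of -1.13 to 3.96 (limma adjusted p = 0.310), with same-numbered differences of 0.97 and 1.85. Without array 2 labelled Junb-deficient it was 0.29. The second Tox2 probe was above background on 1 array only.

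Genes known to be tied to the members were then read from lists, each gene by its brightest probe. Among such probes 8.07% were called, 6.79% higher and 1.28% lower. An unadjusted limma p under 0.05 was reached by 12843 of all 33606 tested probes, and such counts below are to be read against that share. The first list held relatives and partners of the members: Bach1, Id1, Zeb1, Tox4, the small Maf partners of Bach2 and co-repressors of Bcl6, Blimp-1 and Zeb factors. Of 22 genes 19 were tested, 1 fell and 16 were negative, with a median of -0.32 against -0.012 for all tested probes. Tox4, the widely expressed relative of Tox, fell by 1.503 ± 0.19 (limma adjusted p = 0.0351), from relative signals of 6.90 and 5.68 to 2.08 and 2.34. Id4, Tox3 and Ctbp2 were not above background on any array.

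Targets of the repressors moved in both directions. Of 12 genes known to be repressed by Blimp-1, all tested, 1 rose and 1 fell (median 0.28), and the list holds the members Bcl6 and Id3, neither of them called there. Myc, the growth regulator, fell by 1.27 ± 0.19 (limma adjusted p = 0.0453). Fos, an AP-1 subunit, rose by 1.23 ± 0.20 (adjusted p = 0.0477). Of 12 genes known to be repressed by Bcl6, also all tested, 2 rose and 1 fell (median -0.06), and the list holds the members Prdm1 and Id2. Apart from them the called gene was Gpr183, an oxysterol receptor that guides lymphocyte position, which rose by 1.40 ± 0.19 (adjusted p = 0.0386), from 0.381 and 0.389 to 0.903 and 1.14. Of 13 genes known to be repressed by Bach factors 12 were tested, and 2 rose and 1 fell (median 0.31). Prdm1 and Il1rl1, the IL-33 receptor (1.87 ± 0.30, adjusted p = 0.048), rose, while the chemokine receptor Ccr4 fell by 3.42 ± 0.31 (adjusted p = 0.0278).

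**Figure D3:**
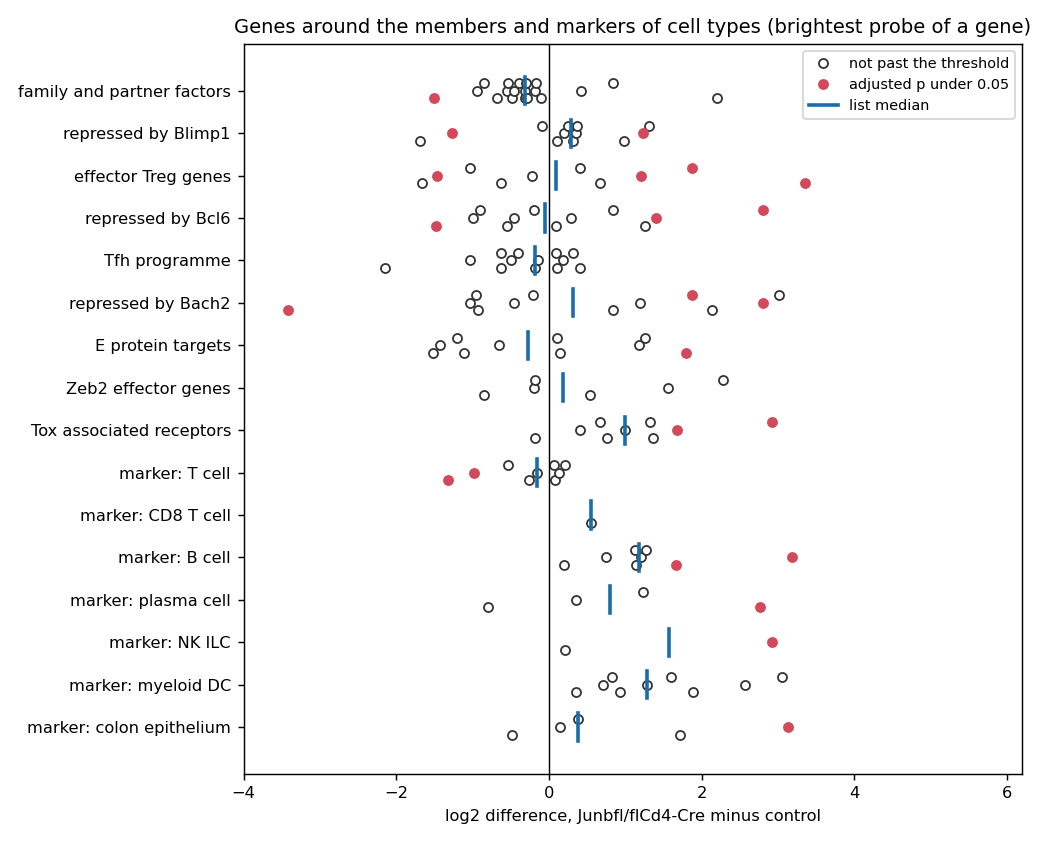
Log2 difference, arrays labelled Junbfl/flCd4-Cre minus control, for the tested genes of each list (brightest probe per gene), with filled points for an adjusted p under 0.05 and a bar at the list median. Called genes lie on both sides of 0 in the lists of genes repressed by Blimp-1, Bcl6 and Bach2, while all 8 tested B cell markers are positive.

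Effector Treg genes, which accompany Blimp-1, were tested for 10 of 14 members, with 3 higher and 1 lower (median 0.09). Itgae, the integrin chain CD103, rose by 3.36 ± 0.41 (limma adjusted p = 0.0351), from 0.306 and 0.650 to 4.21 and 4.96. Tnfrsf9, the costimulatory receptor 4-1BB, rose by 1.21 ± 0.20 (adjusted p = 0.0491), Il1rl1 rose as above, and the inhibitory receptor Ctla4 fell by 1.47 ± 0.24 (adjusted p = 0.0484). Il10, Klrg1 and Havcr2 were above background on no array. Follicular helper genes, around Bcl6 and Tox2, had 0 of 13 tested called by limma (4 at an unadjusted p under 0.05, 8 negative, median -0.18). Those with the smallest p were Cd200 (-1.04 ± 0.19, adjusted p = 0.058) and the factor Maf (-2.15 ± 0.42, adjusted p = 0.061). Of 14 genes that depend on or respond to E proteins 10 were tested and 1 was called (median -0.28). Notch1, the receptor of early T cell development, rose by 1.79 ± 0.20 (adjusted p = 0.0329), from 0.806 and 0.852 to 3.31 and 2.50, and Rag1, Rag2 and Hes1 were above background on no array.

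Terminal effector genes around Zeb2 had 6 of 10 tested and 0 called by limma (1 at an unadjusted p under 0.05, 3 positive, 3 negative, median 0.18), with Nkg7 at 2.28 ± 0.44 (adjusted p = 0.060) and the death ligand Fasl at -0.85 ± 0.35 (adjusted p = 0.160). Receptors and factors that accompany Tox had 9 of 11 tested, 8 positive and 2 called (median 0.99). Cd244a, a SLAM family receptor, rose by 1.67 ± 0.25 (limma adjusted p = 0.0431), and Eomes, a T-box factor, was at least 4.53-fold higher. Eomes was not well above background on either control, so only the arrays labelled Junb-deficient brought it into the test. Its call (limma adjusted p = 0.0343) belongs to the signals as read (2.92 ± 0.35), not to that fold, and its direction was set by the filter. Beside them stand the marker lists, where 2 of 8 tested B cell markers, Ms4a1 (3.18 ± 0.26) and Ebf1 (1.67 ± 0.27), and 0 of 9 myeloid markers were called by limma, 5 of the latter having an unadjusted p under 0.05. The myeloid genes with the smallest p were Cd14 (2.57 ± 0.46, adjusted p = 0.056) and Fcgr3 (1.89 ± 0.34, adjusted p = 0.056). The T cell markers Thy1 (-0.98 ± 0.15) and Cd2 (-1.33 ± 0.22) fell. The colon epithelium gene Slc26a3, not above background on the controls and tested only through the other arrays, was at least 8.44-fold higher.

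The genes with the profile nearest to a member were found by the Euclidean distance between mean-centred log2 signals over the 4 arrays. Nearest to Prdm1 were Tlr8, Slitrk3 and Tac2 (distances of 0.059, 0.11 and 0.16), whose processed signals on the controls were only 1.51 to 2.78. Nearest to the bright Bcl6 probe were Tmem140, Spata33 and Rfx8 (0.11, 0.12 and 0.13), with differences of 1.34, 1.25 and 1.43. Nearest to the bright Bach2 probe were Ckb, Mbtps2 and Vwa8 (0.051, 0.064 and 0.070), with differences of -0.58, -0.50 and -0.54. With 4 arrays such likeness says little beyond a shared order of the arrays.

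**Figure D4:**
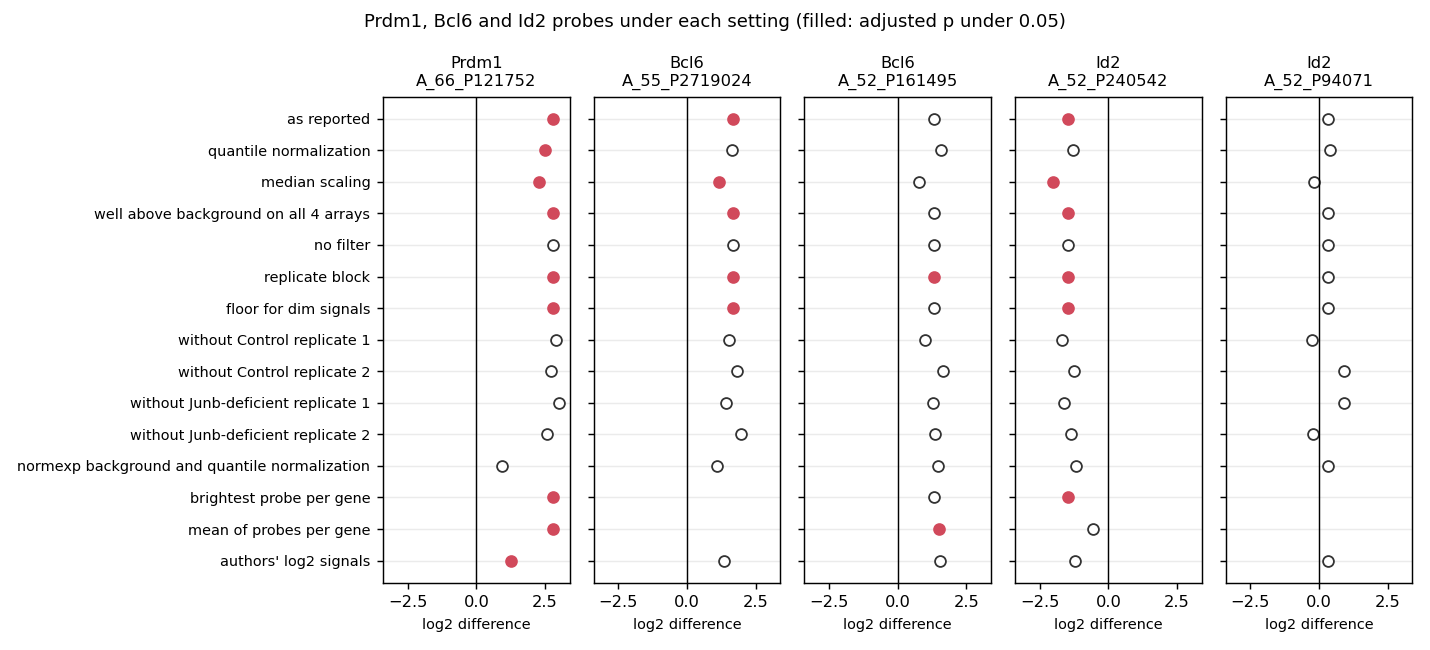
Log2 difference of the Prdm1, Bcl6 and Id2 probes (x axis) under each processing setting (rows), filled where the adjusted p was under 0.05. Prdm1 and both Bcl6 probes stay above 0 and the RefSeq Id2 probe below 0 in every setting drawn, with Prdm1 at its smallest, 0.94, under normexp background with quantile normalization. Changes of filter, block or floor and the brightest-probe fit leave these differences as they were, so their sign there was fixed. The row for the mean of probes holds the mean over a gene's tested probes, drawn under its brightest probe.

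Without any 1 of the 4 arrays limma called 0 of all 33606 probes, so the loss of the member calls there says nothing about their stability. The differences of Prdm1 stayed between 2.58 and 3.02, those of the dimmer Bcl6 probe between 1.41 and 1.95 and those of the RefSeq Id2 probe between -1.71 and -1.26. Of the 24 member probes 4 to 6 had an unadjusted p under 0.05 in these fits, against 7319 to 11362 of all probes.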

How the data were processed

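The 4 arrays were analysed, 2 per genotype by their titles. Per the file headers, the authors read 1 slide in 1 scan with Agilent Feature Extraction 11.5.1.1, and the deposited intensity per spot (processed signal) was background-subtracted and detrended within the array. The deposited 0/1 values per spot for signal well above background, saturation and outlying spots are the other values used. The authors' table holds log2 signals per array with a log2 difference, a p-value with its adjusted p-value, and 2 scores (t and log odds), per the file headers. How those log2 signals were made: not given in the sources used here. Where an accession has several probes, its row lay closer to their mean (median distance 0.0352) than to the listed probe (0.545), so such rows were not set against single probes.

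Of 59305 non-control spots per array, 108 to 215 were outlying and left out, none was saturated, and 59.3% to 66.3% were well above background. Log2 signals were averaged per probe (56310 probes; 295 had no usable spot on some array) and the array's 75th percentile was subtracted. Probes well above background on both arrays of a genotype (33606) were fitted with limma 3.58.1 (R 4.3.3, lmFit and eBayes, no covariate), with Benjamini-Hochberg adjustment over all of them. With 2 arrays per genotype no permutation test can pass 0.05 (the smallest two-sided exact p is 0.333). "At least" folds replace dim signals by the array's dimmest signal that was above background. Calls of these genes come from the signals as read, and the genes were tested only through the genotype that was above background. Gene names were updated through RefSeq (GRCm38.p6): 32831 probes by accession, 10168 already current, 517 by synonym, 12794 kept. The fit was tested on simulated data. Tables and figures used Python 3.11.15, pandas 2.3.3, numpy 2.4.6 and matplotlib 3.10.9.

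Named genes are all members, Junb, up to 4 called genes per list (otherwise the 2 of smallest p) and the 3 nearest profiles for Prdm1, Bcl6 and Bach2. The members and lists were chosen with earlier results of these data known.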

Additional observations from a re-analysis of the deposited data

How the results depend on the processing

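Of all probes 2279 were called, 81.5% of them higher, and of the member probes 3. Quantile normalization called 649 probes and 1 member, scaling to the median 12970 (18.5% higher) and 9, normexp background with quantile normalization 338 and 0 by limma (10501 and 7 at an unadjusted p under 0.05), and the authors' log2 signals 641 and 1. With all 4 arrays above background 1377 were called. Without the filter limma called 0 probes and 0 members (12027 and 5 at an unadjusted p under 0.05), and Prdm1 gave an adjusted p of 0.099. Without any 1 array limma called 0 and 0 (7319 to 11362 and 4 to 6 unadjusted); with 1 array left in a genotype, its spread is taken from the other. Same-numbered arrays deviated together (r = 0.45 across probes) and share a row of the slide, but no label pairs them. The replicate block called 8523 probes and 5 members, adding the bright Bcl6 probe (limma adjusted p = 0.035) and Tox2 (0.039). The slide was no batch, since it held every array. Signs turned at probes that were not called: with the median scaling at the second Id2 probe (-0.20), Tcf12 A_52_P859153 (-0.26) and A_66_P120622 (-0.27), Zeb2 A_51_P121206 (-0.21) and A_55_P2718568 (-0.023) and 3 Tox probes (-0.22, -0.19, -0.23); with quantile normalization at Id3 (0.13), Tcf12 A_66_P120622 (-0.38) and Zeb2 A_55_P2718568 (-0.14); with normexp and quantile normalization together at Id3 (0.15) and Tcf12 A_66_P120622 (-0.038); and with the authors' signals at Id3 (0.17) and Tcf12 A_66_P120622 (-0.056). Leaving out single arrays gave -0.30 to 0.030 at the dimmer Bach2 probe, -0.24 to 0.92 at the second Id2 probe, -0.39 to 0.21 at Id3, -0.34 to 0.86 at Tcf12 A_66_P120622 and -0.53 to 0.16 at Zeb2 A_52_P596008. The cause of these changes was not tested. The number of arrays limits the precision, and signals near background limit Prdm1 on the controls and Zeb2 throughout.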

Other observations

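Some signals followed the array number rather than the label. The B cell gene Fcer2a had processed signals of 136 and 125 on the control and the other array numbered 1, and of 2.88 and 5.57 on those numbered 2. Ms4a1, another B cell gene, read 23.0 and 32.5 for the controls against 183 and 184, so these B cell genes did not move together.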
